A study of Mus musculus with 23 samples.

Results

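The salt-inducible kinases Sik1, Sik2 and Sik3, the CREB-regulated transcription coactivators Crtc1, Crtc2 and Crtc3, and the transcription factor Creb1 were followed in the whole brain of adult mouse progenies. The 7 genes were selected on the measured values: a fall of a Sik2 probe relative to the control diet led to the choice of Sik2, and the other genes were added because they act with it in one pathway. The array carried 13 probes named for these genes, of 39429 probes in all, with 1 probe for Sik1, 2 for Sik2, 3 for Sik3, 1 for Crtc1, and 2 each for Crtc2, Crtc3 and Creb1. Every one of the 13 probes was well above background on all 12 arrays.

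The progenies were C57BL/6J males of 19 weeks that came from in vitro fertilized eggs and were carried by ICR recipient mothers on 1 of 3 diets. The control diet (CD) held 20% casein and 0.02% folic acid, the protein-restricted diet (PR) held 5% casein and 0.02% folic acid, and the folic acid-supplemented diet (FA) held 5% casein and 0.1% folic acid. The pups were delivered by cesarean section and nursed by ICR foster mothers. Accounts of the foster mothers' diet differ within the paper. It is the CD alone in a part of the methods and in the discussion. It is the 3 diets in another part of the methods, in the results and in a figure legend. A difference between the groups in nursing therefore cannot be told apart from one before birth. All offspring ate the CD after weaning. According to the paper, the brains were collected after a series of behavioral tests, which included foot shocks and tail suspension. RNA from 4 brains per diet was labeled with Cy3 and hybridized to 1 Agilent array per brain, so that CD, PR and FA each had 4 arrays.

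The 4 arrays of each diet lay on 1 slide of their own, so that a difference between diets and a difference between slides cannot be told apart. No spot was saturated. Between 27068 and 28458 spots were well above background on the CD arrays, between 31266 and 33478 on the PR arrays, and between 30408 and 31672 on the FA arrays. The median background that the scanner software subtracted was 59.4 to 66.4 intensity units on the CD arrays, 76.4 to 81.6 on the PR arrays, and 70.6 to 77.1 on the FA arrays. Neuronal, glial and oligodendrocyte markers were detected on all 12 arrays. The summed level of the 5 pituitary markers, of which 1 was above background on every array, ranged from 1943 to 2029 on the CD arrays, from 930 to 1172 on the PR arrays, and from 587 to 1478 on the FA arrays, and its part in the differences below was not tested.

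SIKs are kinases of the AMPK-related family that are switched on by LKB1 (Stk11) and restrained by protein kinase A (PKA). They phosphorylate the CRTC coactivators, which are then held in the cytoplasm by 14-3-3 proteins. When cyclic AMP or calcium signals inhibit SIKs or activate calcineurin, CRTCs enter the nucleus and join CREB at cyclic AMP response elements (CREs) of genes that neurons induce on activity, Sik1 among them.

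The Sik2 probe listed by the study, A_66_P129769, is shown because the choice of the genes rests on it. Its bases, 5′ to 3′ as the array design gives them, were mapped by the files to the minus strand of mm9, chr9:50743671-50803760.
Sik2 A_66_P129769: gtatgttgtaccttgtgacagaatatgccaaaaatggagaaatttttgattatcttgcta
The 60 bases of the probe covered an interval of 60090 bases, so the match was split by an intron. The other Sik2 probe, A_55_P2020256, matched 60 unbroken bases of the same strand at chr9:50700917-50700976, which lies 42695 bases from the nearest end of the first. Both probes carry the same RefSeq transcript, NM_178710, in the files. Exon and UTR annotation of these positions was not used here.

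The promoter windows in the RefSeq table (GRCm38.p6), from 250 bases before to 50 bases after the annotated start, were found for Sik2, Sik3, Crtc1, Crtc3 and Creb1. They were searched on both strands for the CRE half-site TGACG and the full palindrome TGACGTCA, which contains the half-site. The Sik2 window held 2 half-sites and the Sik3 window 3, while the Crtc1, Crtc3 and Creb1 windows held 0. None of these windows held the full palindrome. Of 32851 windows of 300 bases in the table, 20.8% held at least 1 half-site, 5.01% held 2 or more, and 1.79% held the palindrome. The Sik2 window is shown with its half-sites in capitals, on the minus strand of chr9:51009024-51009323 in GRCm38.p6.
Sik2 promoter: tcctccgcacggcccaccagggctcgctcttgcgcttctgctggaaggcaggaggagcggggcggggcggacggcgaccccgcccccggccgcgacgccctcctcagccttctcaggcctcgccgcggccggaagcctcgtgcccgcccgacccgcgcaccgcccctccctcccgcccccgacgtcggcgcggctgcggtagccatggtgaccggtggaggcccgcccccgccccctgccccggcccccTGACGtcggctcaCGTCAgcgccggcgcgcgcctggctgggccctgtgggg

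The 2 Sik2 probes gave unlike pictures of the same gene, and their values relative to CD are described here without a test because they led to the choice of the gene. Sik2 is the SIK best known from fat, liver and neurons, where it restrains CRTC activity. On the log2 scale of the deposited normalized intensities, the listed probe measured 5.67, 5.92, 5.88 and 5.69 on the CD arrays. It measured 4.62, 4.52, 4.43 and 4.27 on the PR arrays, and 4.49, 4.69, 4.27 and 4.68 on the FA arrays. All 8 PR and FA arrays lay below all 4 CD arrays, and the PR and FA arrays overlapped. The mean was 5.79 ± 0.13 (SD, n = 4) in CD, 4.46 ± 0.15 in PR and 4.53 ± 0.20 in FA, which is a log2 difference of -1.33 for PR minus CD and of -1.26 for FA minus CD.

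The other Sik2 probe measured 9.91, 9.82, 9.87 and 9.91 on the CD arrays, and 9.88, 9.87, 9.69 and 9.83 on the PR arrays. These 2 groups overlapped, with a log2 difference of -0.06. On the FA arrays it measured 9.65, 9.48, 9.61 and 9.68, below every CD and every PR array, with a log2 difference of -0.27 for FA minus CD. The step from PR to FA was not used to choose the gene and was tested: it was -0.21 ± 0.06 (SE) with an adjusted p of 0.13 in limma, so it did not pass after adjustment. For the listed probe, FA minus PR was 0.07 ± 0.11 (SE), adjusted p = 0.82, and this small difference turned to -0.09 with scaling to the 75th percentile and to -0.01 with the normexp background correction.

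**Figure D1:**
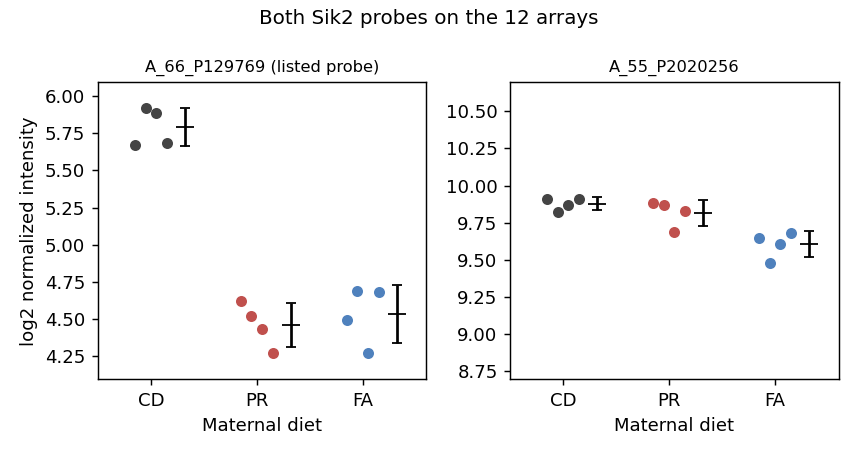
Log2 normalized intensity of the Sik2 probes A_66_P129769 (left) and A_55_P2020256 (right) on 4 CD, 4 PR and 4 FA arrays, with the mean and SD beside the points. Each panel spans the same log2 range; the left probe is lower on all PR and FA arrays than on any CD array, and the right probe is below every CD array on the FA arrays and overlaps with CD on the PR arrays.

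The listed Sik2 probe was dim, and its background was traced on each array. Before background subtraction, its spot signal was 109, 108, 123 and 111 intensity units on the CD arrays, and 113, 114, 111 and 116 on the PR arrays. The signal therefore overlapped between CD (112 ± 7.0, SD, n = 4) and PR (113 ± 1.93). On the FA arrays it was 97.2, 100.02, 101 and 104, below the CD arrays. The background subtracted at this spot was 59.5 to 68.0 units in CD, 75.8 to 82.1 in PR and 68.0 to 76.0 in FA. After subtraction 45.5 to 54.8 units remained in CD, 29.1 to 37.3 in PR and 24.8 to 29.3 in FA. The PR arrays were also brighter as a whole, with a 75th percentile of processed signal of 1918 to 2253 units against 1307 to 1709 in CD.

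**Figure D2:**
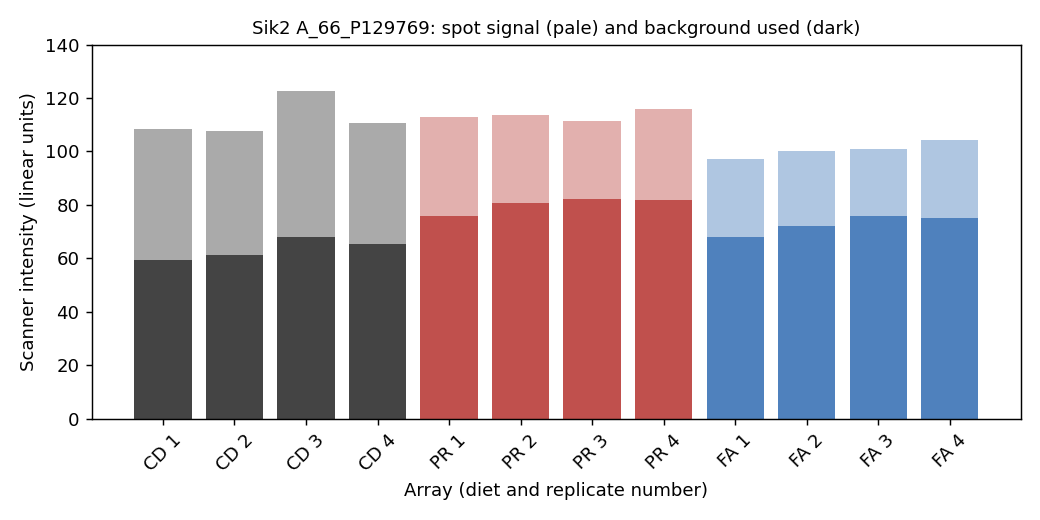
Scanner intensity in linear units at the Sik2 probe A_66_P129769 on each of the 12 arrays. The full bar height is the mean spot signal and the dark part the background that was subtracted, so the pale part is what was left: the full bars of CD and PR reach like heights (108 to 123 and 111 to 116 units), and the dark parts are taller in PR and FA.

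The size of the difference at the listed Sik2 probe moved with the background step, while its direction relative to CD was kept. With normexp in place of subtraction, the log2 difference was -0.37 for PR minus CD and -0.38 for FA minus CD. With no subtraction at all, a setting added after the values were seen, both were -0.43. Quantile normalization of the subtracted signal gave -1.27 and -1.19, and scaling to the 75th percentile gave -1.02 and -1.10.

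**Figure D3:**
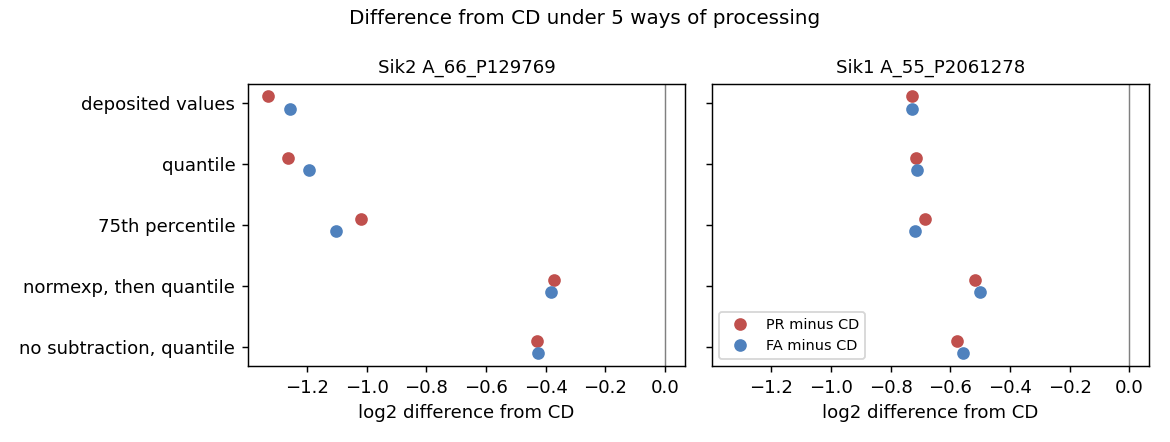
Log2 difference from CD of the Sik2 probe A_66_P129769 (left) and the Sik1 probe A_55_P2061278 (right) for PR and FA under each way of processing the intensities. The Sik2 differences run from -1.33 to -0.37 and the Sik1 differences from -0.73 to -0.50.

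The probes whose profile over the 12 arrays was nearest to that of the listed Sik2 probe were those of Gm3865, Arid2, LOC632383, Cbx3 and Nr3c1. Their root mean square difference from it, after each probe was centred on its own mean, was 0.144, 0.167, 0.183, 0.185 and 0.187 on the log2 scale, among 23260 named probes well above background in CD. The listed probe itself had a root mean square deviation of 0.627 about its mean. The other Sik2 probe came at rank 5344 with 0.567. These profiles are descriptions over arrays that share slides.

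Sik1 was lower in both PR and FA, by the largest difference among the 11 probes of the 6 genes other than Sik2. Sik1 encodes the SIK whose own transcript is induced by cyclic AMP and neuronal activity. Its probe A_55_P2061278 (NM_010831, mm9 chr17:31981255-31981314, minus strand) measured 8.91, 8.81, 8.91 and 8.78 on the CD arrays, 8.27, 8.09, 7.99 and 8.13 on the PR arrays, and 8.04, 8.22, 8.14 and 8.09 on the FA arrays. Neither the PR nor the FA arrays overlapped with the CD arrays, and they overlapped with each other. Before normalization between arrays, the processed signal was 328 to 445 units in CD, 276 to 373 in PR and 259 to 299 in FA. CD and PR thus overlapped before that step, while FA lay below CD. The level fell by 39.7% in PR (log2 difference -0.73 ± 0.07, SE, adjusted p = 7.8e-05 in limma) and fell by 39.6% in FA (-0.73 ± 0.07, adjusted p = 7.2e-05). In bulk tissue, fewer cells that express a gene and less RNA per cell cannot be told apart. PR and FA did not separate, with a log2 difference of 0.00 ± 0.07 (SE) and a 95% interval from -0.14 to 0.15.

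The fall of Sik1 relative to CD passed the test under all 21 alternatives, including each array left out in turn. Its log2 difference ranged from -0.78 to -0.52 in PR and from -0.76 to -0.50 in FA. The smallest differences, -0.52 in PR and -0.50 in FA, came with normexp.

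Sik3 showed no call in either comparison. Sik3 encodes the largest SIK and was read by 3 probes, of which A_55_P2113291 and A_55_P2153541 share 55 of their 60 bases and so are close to one measurement (mm9 chr9:46032210-46032269 and chr9:46032215-46032274, plus strand). The first ranged from 13.96 to 14.42 on the CD arrays, from 14.02 to 14.20 on the PR arrays and from 14.03 to 14.24 on the FA arrays. The second ranged from 14.02 to 14.25, from 14.09 to 14.28 and from 14.07 to 14.29, so that all 3 groups overlapped at both probes. The differences from CD lay between -0.12 and 0.04, with 95% intervals that reached no further than -0.33 and 0.19.

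The third Sik3 probe, A_55_P2180531 (chr9:46029257-46029316), measured 7.60, 7.71, 7.53 and 7.54 in CD, 7.60, 7.39, 7.44 and 7.49 in PR, and 7.5, 7.38, 7.49 and 7.5 in FA. The FA arrays all lay below the CD arrays, but the log2 difference of -0.13 ± 0.06 (SE) gave an adjusted p of 0.12. The difference in PR was -0.12 ± 0.06 (adjusted p = 0.16).

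**Figure D4:**
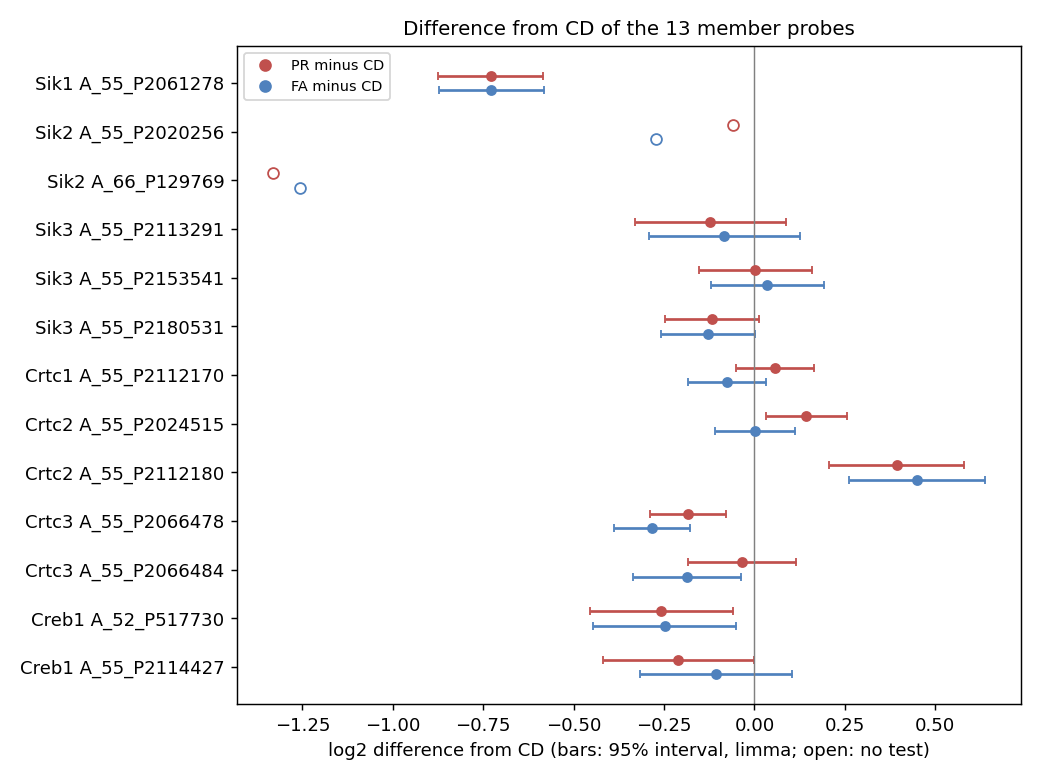
Log2 difference from CD of the 13 probes in PR and FA, with 95% intervals from limma; the Sik2 probes, whose values led to the choice of the genes, are open circles without interval. Sik1 lies below 0 and Crtc2 A_55_P2112180 above 0 in both, and the Sik3 and Crtc1 intervals include 0.

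Among the CRTC coactivators, 1 Crtc2 probe rose, 1 Crtc3 probe fell, and the Crtc1 probe was not called. Crtc1, the member most prominent in neurons, measured 13.37, 13.38, 13.33 and 13.27 in CD, 13.43, 13.38, 13.38 and 13.39 in PR, and 13.36, 13.27, 13.15 and 13.27 in FA (A_55_P2112170, chr8:72906260-72906319, minus strand). The 3 groups lay close together. Its log2 difference was 0.06 ± 0.05 (SE, adjusted p = 0.41) in PR and -0.08 ± 0.05 (adjusted p = 0.26) in FA. With scaling to the 75th percentile these became -0.02 and -0.14, and the second then passed with an adjusted p of 0.0396.

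Crtc2, the coactivator best studied in liver, rose at 1 of its 2 probes. Probe A_55_P2112180 (chr3:90066577-90066636, plus strand) measured 6.00, 6.22, 6.28 and 6.37 in CD, 6.65, 6.61, 6.55 and 6.65 in PR, and 6.83, 6.61, 6.70 and 6.54 in FA. Every PR and FA array lay above every CD array. This probe was also dim in CD, where 46.9 to 55.6 units remained after background subtraction. Before subtraction, its spot signal was 101 to 114 units in CD, 162 to 187 in PR and 145 to 180 in FA. The level was 31.3% higher in PR (log2 difference 0.39 ± 0.08, SE, adjusted p = 0.0061) and 36.6% higher in FA (0.45 ± 0.08, adjusted p = 0.0024). With normexp the differences were 0.19 and 0.28, and with no background subtraction 0.23 and 0.31, and all of these passed the test.

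The brighter Crtc2 probe A_55_P2024515 (chr3:90067950-90068009) measured 10.78, 10.68, 10.83 and 10.89 in CD, 10.90, 11.02, 10.90 and 10.92 in PR, and 10.81, 10.79, 10.82 and 10.75 in FA. Its PR arrays lay just above the CD arrays and its FA arrays within them. The log2 difference was 0.14 ± 0.05 (SE, adjusted p = 0.054) in PR and 0.00 ± 0.05 (adjusted p = 0.99) in FA. The PR difference passed without the CD 4 array (adjusted p = 0.026), with normexp (0.029), with no background subtraction (0.030) and with the trended and robust variance (0.037). The 2 Crtc2 probes thus differed in FA, where 1 was called and the other lay at 0.

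Crtc3 fell at 1 of its 2 probes. Probe A_55_P2066478 (chr7:87731571-87731630, minus strand) measured 10.59, 10.49, 10.53 and 10.58 in CD, 10.36, 10.35, 10.27 and 10.46 in PR, and 10.29, 10.23, 10.23 and 10.31 in FA. After normalization, no PR or FA array reached the CD arrays. Before normalization between arrays, the processed signal was 1044 to 1448 units in CD, 1326 to 1782 in PR and 1182 to 1363 in FA. The groups thus overlapped with CD before that step. The level fell by 12% in PR (log2 difference -0.18 ± 0.05, SE, adjusted p = 0.014) and fell by 17.8% in FA (-0.28 ± 0.05, adjusted p = 0.0013).

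The other Crtc3 probe, A_55_P2066484 (chr7:87733212-87733271), measured 8.51, 8.76, 8.50 and 8.56 in CD, 8.6, 8.53, 8.51 and 8.55 in PR, and 8.51, 8.39, 8.27 and 8.42 in FA. The groups overlapped with CD in both comparisons. The log2 difference was -0.03 ± 0.07 (SE, adjusted p = 0.74) in PR and -0.19 ± 0.07 (adjusted p = 0.055) in FA, and the FA difference passed without the FA 1 array (adjusted p = 0.039) and when dim probes were removed (0.047).

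Creb1, the transcription factor that the CRTCs bind, was read by 2 probes and neither passed the test. Probe A_52_P517730 (chr1:64644633-64644692, plus strand) measured 7.38, 7.36, 7.35 and 6.93 in CD, 7.04, 7.0, 6.99 and 6.97 in PR, and 6.98, 7.02, 7.02 and 7.01 in FA. The CD 4 array stood below all other arrays, and the other 3 CD arrays stood above every PR and FA array. The log2 difference was -0.26 ± 0.09 (SE, adjusted p = 0.052) in PR and -0.25 ± 0.09 (adjusted p = 0.054) in FA. Without the CD 4 array, which was marked as no outlier by the scanner software, the differences were -0.37 and -0.36 and both passed, each with an adjusted p of 2.0e-04. With all arrays kept, the FA difference also passed when dim probes were removed.

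The other Creb1 probe, A_55_P2114427 (chr1:64651061-64651120), measured 8.85, 8.49, 8.57 and 8.45 in CD, 8.24, 8.55, 8.39 and 8.34 in PR, and 8.52, 8.58, 8.37 and 8.45 in FA. The groups overlapped. Its log2 difference was -0.21 ± 0.09 (SE, adjusted p = 0.12) in PR and -0.11 ± 0.09 (adjusted p = 0.42) in FA.

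**Figure D5:**
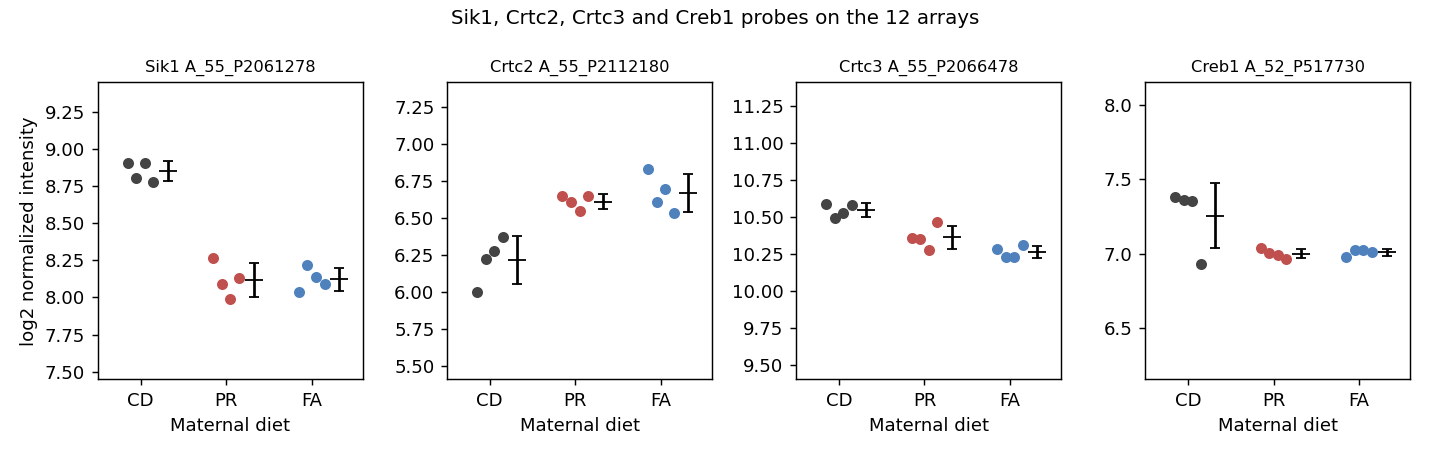
Log2 normalized intensity of the Sik1, Crtc2, Crtc3 and Creb1 probes named above each panel on the 12 arrays, with the mean and SD beside the points and the same log2 range in each panel. The PR and FA arrays lie apart from the CD arrays for Sik1, Crtc2 and Crtc3, and the CD 4 array (6.93) lies apart from the other CD arrays for Creb1.

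Of the 11 probes outside Sik2, 2 were called lower and 1 higher in PR, at an adjusted p under 0.05, and the same 3 probes, of Sik1, Crtc3 and Crtc2, were called in FA. Over all probes of the array, 16.6% were called lower and 13.4% higher in PR minus CD, and 18% and 16.4% in FA minus CD. The 2 comparisons share the CD arrays. In each, 4 of the 11 probes did not overlap between the groups, against 33.2% of all probes in PR minus CD and 36.9% in FA minus CD. The median log2 difference of the 11 probes was -0.12 in PR and -0.11 in FA, and that of all probes -0.02 and -0.01. The share of the members called was near the background.

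The step from PR to FA called 0 of the 13 probes in limma and 0 in the Tukey test, and 4 of them had an unadjusted p under 0.05 in limma. Over the array, 0.386% of the probes were called lower and 0.228% higher in FA than in PR. The FA arrays lay below all PR arrays at 4 probes, which were Sik2 A_55_P2020256, Crtc1 A_55_P2112170, Crtc2 A_55_P2024515 and Crtc3 A_55_P2066484, against 11.1% of all probes that did not overlap in either direction. Their log2 differences were -0.21, -0.13, -0.14 and -0.15, with adjusted p of 0.13, 0.25, 0.24 and 0.34. These probes were thus lower on every FA array than on any PR array by 8.76% to 13.7% of the mean level, without passing the test over the whole array.

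The partners of SIKs and CREB were read from 9 lists of 82 genes with 122 probes. In PR, 16 of the probes were called lower and 30 higher, and in FA 20 lower and 26 higher. These are 13.1% lower and 24.6% higher in PR, beside 16.6% and 13.4% of all probes, and 16.4% lower and 21.3% higher in FA, beside 18% and 16.4%. The counts of single lists below, where no other scaling is named, are to be read against the same shares of all probes. The split depended on the scaling, since the 75th percentile gave 23 lower and 21 higher in PR and 27 lower and 16 higher in FA. The whole array moved too. Of its 39429 probes, that scaling called 8732 lower and 6030 higher in PR, and 9544 and 6147 in FA. The main fit called 6532 lower and 5288 higher in PR, and 7109 and 6449 in FA. Between FA and PR, limma called 0 of the 122 probes, 23 had an unadjusted p under 0.05, and 1, of Brsk2, was called with normexp, with no background subtraction or when dim probes were removed.

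Above the SIKs, the complex of LKB1 had 1 of 9 probes lower and 1 higher in PR, and 1 lower and 2 higher in FA. Cab39l, a scaffold of the complex, fell at 1 of its 3 probes, A_55_P2001948 (log2 difference -0.34 ± 0.09, SE, in PR and -0.36 ± 0.09 in FA, adjusted p = 0.017 and 0.011). Its probes A_52_P264905 (0.15 in PR, 0.20 in FA) and A_55_P2000818 (0.05 and 0.00) did not pass. Strada, the pseudokinase partner of LKB1, measured 0.13 ± 0.05 in PR (adjusted p = 0.084) and rose by 0.22 ± 0.05 in FA (adjusted p = 0.0065).

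PKA, which restrains SIKs, had 6 of 11 probes higher and 0 lower in PR, and 5 higher and 0 lower in FA, beside 13.4% of all probes higher in PR and 16.4% in FA. The called probes read regulatory subunits, and no probe of the catalytic subunits Prkaca and Prkacb was called in either comparison. That split rests on the limit in PR, where Prkaca measured 0.30 ± 0.11 (SE, adjusted p = 0.052 in limma). In FA Prkaca measured -0.07 ± 0.11 (adjusted p = 0.65). With dim probes removed, 7 probes of the list were higher in PR, Prkaca among them. Prkar2b A_66_P112436 rose by 0.45 ± 0.07 (SE) on the log2 scale in PR and by 0.49 ± 0.07 in FA (adjusted p = 6.7e-04 and 3.4e-04), and Prkar1b A_55_P2176280 by 0.43 ± 0.06 and 0.49 ± 0.06 (adjusted p = 7.1e-04 and 2.7e-04). Of the other Prkar2b probes, A_55_P2122200 also rose (0.48 and 0.34), and A_55_P2055087 did not pass (-0.13 and 0.02). With scaling to the 75th percentile the list had 5 higher and 2 lower in PR and 4 higher and 1 lower in FA. These counts are to be read against the whole-array counts under that scaling.

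Among adenylyl cyclases and stimulatory G proteins, which raise cyclic AMP, 5 of 16 probes were higher and 1 lower in PR, and 4 higher and 3 lower in FA. Adcy3 rose by 0.40 ± 0.06 (SE) in PR and 0.48 ± 0.06 in FA on the log2 scale (adjusted p = 0.0011 and 3.3e-04). Among the phosphodiesterases that degrade it, 4 of 20 probes were higher and 4 lower in PR, and 3 higher and 2 lower in FA. The 3 probes of Pde4b were split. A_52_P423247 fell by 0.31 and 0.34 on the log2 scale in PR and FA, and A_65_P01319 rose by 0.28 and 0.32. A_52_P149801 fell by 0.64 in PR and measured -0.38 in FA (adjusted p = 0.12). This last probe was dim, with a mean log2 value of 5.65 in CD and 5.01 in PR, and was well above background on 11 arrays.

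Of the 16 probes of calcineurin, which dephosphorylates CRTCs, and of 14-3-3 proteins, which anchor them, 4 were higher and 1 lower in PR, and 7 higher and 2 lower in FA. The 14-3-3 gene Ywhaz fell at A_55_P1987245 by 0.69 in PR and 0.84 in FA on the log2 scale (SE 0.12, adjusted p = 0.0018 and 4.6e-04), and the 14-3-3 gene Ywhaq rose at A_55_P2178349 by 0.39 and 0.37 (SE 0.07, adjusted p = 0.0017 and 0.0018). At Ywhaz, A_52_P225260 fell by 0.30 and A_66_P120770 rose by 0.30 in FA, and neither passed in PR, so its probes differed in direction.

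The other AMPK-related kinases, relatives of the SIKs, had 6 of 15 probes higher and 0 lower in PR, and 2 higher and 2 lower in FA. Mark4, a microtubule affinity-regulating kinase, rose at 1 of its 2 probes, A_55_P2142585, by 0.64 ± 0.07 (SE) in PR and 0.35 ± 0.07 in FA on the log2 scale (adjusted p = 1.7e-04 and 0.0044), which became 0.39 and 0.20 with normexp. Its probe A_55_P2142580 measured 0.10 and 0.04 (adjusted p = 0.16 and 0.59). Brsk2, a kinase of neuronal polarity, measured -0.15 ± 0.06 in PR (adjusted p = 0.095) and fell by 0.48 ± 0.06 in FA (adjusted p = 3.4e-04) at A_55_P2134105, or -0.30 in FA with normexp, while its probe A_51_P160581 rose by 0.14 and 0.15.

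The class IIa histone deacetylases are SIK substrates that leave the nucleus when phosphorylated. Of their 4 probes, 2 were lower and 1 higher in PR, and 2 lower and 2 higher in FA. Hdac4 fell by 0.20 and 0.42 on the log2 scale (SE 0.06, adjusted p = 0.025 and 3.7e-04), although its PR difference did not pass with normexp (-0.15, adjusted p = 0.070). Hdac5 rose by 0.27 and 0.18 (SE 0.06, adjusted p = 0.0080 and 0.043), which did not pass with the 75th percentile (0.12 and 0.05).

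Among the relatives of CREB and its acetyltransferases, 1 of 7 probes was lower in PR and 2 in FA, and 0 were higher. Atf1, a close relative of Creb1, fell at 1 of its 2 probes, A_55_P2159994, by 0.31 ± 0.06 (SE) in PR and by 0.32 ± 0.06 in FA on the log2 scale (adjusted p = 0.0029 and 0.0020). Its probe A_52_P228079 measured 0.00 and -0.06 and did not pass.

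Genes known as CREB targets had 6 of 24 probes lower and 3 higher in PR, and 6 lower and 1 higher in FA, with a median log2 difference of -0.12 and -0.15, beside -0.02 and -0.01 over all probes. Of all probes, 16.6% were called lower and 13.4% higher in PR, and 18% and 16.4% in FA. The share of the list called lower was above that of the array in both comparisons. Its share called higher was close to that of the array in PR and below it in FA. These shares rest on few probes, and the list was not tested as a set. Vgf, which encodes a secreted neuropeptide precursor, rose by 0.29 ± 0.06 (SE) in PR and 0.36 ± 0.06 in FA (adjusted p = 0.0051 and 0.0014), although with the 75th percentile these were 0.13, which did not pass, and 0.22. The probes called lower in PR read the activity-induced genes Fos, Fosb, Nr4a1, Nr4a3, Dusp1 and Btg2, and those in FA read Fosb, Nr4a1, Nr4a2 (2 probes), Nr4a3 and Per1, all named after their values were seen. Junb, Egr1, Npas4, Arc, Gadd45b and Bdnf of the same list were not called lower in either comparison. Of the probes called higher, only that of Vgf is named here. Nr4a3 was above background on 5 arrays, and Nr4a1 in FA did not pass with normexp (-0.35, adjusted p = 0.065). Fosb, an activity-induced transcription factor like Fos, fell by 0.45 ± 0.12 (SE) and 0.55 ± 0.12 on the log2 scale (adjusted p = 0.018 and 0.0053).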

How the data were processed

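The authors deposited the Agilent scanner output of 12 expression arrays (spot intensity per array, Feature Extraction 11.0.1.1 per the labels) and a table of linear intensity normalized with the qspline function, whose log2 was taken here. Columns were matched to arrays by label, and each correlated best with its own scanner file. The methylation samples of the series were not analysed here. The number of arrays limits the precision. Nothing states that the 4 brains of a diet came from different litters, so p-values measure the spread between these samples.

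One limma model (version 3.58.1, R 4.3.3, package data.table in version 1.17.8) held all 3 diets, with Benjamini-Hochberg adjustment over 39429 probes and a limit of 0.05. The study's limits were a 2-fold change and an adjusted P of 1e-04. The code was tested on simulated data. Probe names and mm9 positions are those of the files. Figures were drawn with Python 3.11.15, pandas 2.3.3 and matplotlib 3.10.9.

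The genes and lists were chosen with earlier results of these data known, and list genes were named for the probe with the lowest adjusted p in PR or FA minus CD, with their other probes. The CREB targets other than Vgf were named after their values were seen. Nearest profiles were ranked by root mean square difference. Alternatives were 75th percentile scaling, quantile normalization, normexp (offset 50), removal of dim probes, the replicate number as a block, trended and robust variance, fits of only the 2 groups compared, the Tukey test of the methods, each array left out, and, added later, no background subtraction.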

Additional observations from a re-analysis of the deposited data

Results flagged for a closer look

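In 3 of the 39 sets of 4 arrays examined (13 probes in 3 diets), 1 array lay apart from the other 3 by a gap beyond Dixon's critical value at 95%, which chance does in about 1 of 20 such sets. For Creb1 A_52_P517730, the CD 4 array measured 6.93 against 7.35 for the nearest CD array (gap of 0.944 of the range). For Sik3 A_55_P2180531, the FA 2 array measured 7.38 against 7.49 (0.926). For Crtc1 A_55_P2112170, the PR 1 array measured 13.43 against 13.39 (0.833), a gap that is small in itself because the other 3 arrays nearly coincided. The scanner software marked none of these spots as outliers.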

How the results depend on the processing

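Sik1, Crtc2 A_55_P2112180 and Crtc3 A_55_P2066478 kept their direction and stayed past the threshold relative to CD under all 21 alternatives. The number of called probes outside Sik2, 3 in PR and 3 in FA, ran from 3 to 5 in PR and from 3 to 4 in FA when 1 array was left out (5 without the CD 4 array), and was 5 in FA with the 75th percentile and with dim probes removed. The step from PR to FA called 0 in each alternative for the 13 probes. The pathway lists went from 0 to 1 call between FA and PR with normexp, with dim probes removed and with no background subtraction. Over all probes, lower probes made up 55.3% of the calls in PR and 52.4% in FA, against 44.3% and 43.3% with normexp, 44.5% with dim probes removed and 43.8% with no background subtraction in PR, and between FA and PR 62.8% against 83.8% with the 75th percentile. Small differences that never passed the test changed sign. With the 75th percentile these were Sik3 A_55_P2153541 (-0.11 in PR, -0.070 in FA), Crtc1 (-0.022 in PR), Crtc3 A_55_P2066484 (0.0012 in PR), Crtc2 A_55_P2024515 (-0.0036 in FA), and between FA and PR Sik1 (-0.033), Sik2 A_66_P129769 (-0.086), Crtc2 A_55_P2112180 (-0.017) and Creb1 A_52_P517730 (-0.049). With normexp, Sik2 A_66_P129769 gave -0.0098 between FA and PR. With 1 array left out, the ranges crossed 0 for Sik3 A_55_P2153541 (-0.047 to 0.030 in PR, -0.014 to 0.078 in FA), Crtc3 A_55_P2066484 (-0.061 to 0.026 in PR), Crtc2 A_55_P2024515 (-0.037 to 0.032 in FA), and between FA and PR Sik1 (-0.041 to 0.051), Sik3 A_55_P2180531 (-0.041 to 0.029) and Creb1 A_52_P517730 (-0.0014 to 0.022). The cause of these changes was not tested.

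Replicate numbers are shared between diets in the labels, but 3 of 12 correlations of same-numbered arrays were over 0.1 (-0.06 to 0.20) and 5 of 12 arrays correlated best with their own number, so the numbers were not taken to pair the mice. With the replicate block, 3 probes outside Sik2 were called in PR, 3 in FA and 0 between FA and PR, as without it.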
